A study of Mus musculus with 8 samples.

Results

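Adipogenic genes were followed in cultured skin fibroblasts of mice with a mutation in the mitochondrial gene Nd2. The 10 genes, taken by name, were Pparg, Cebpa, Cebpd, Lpl, Cd36, Fabp4, Fabp5, G0s2, Adipoq and Cfd, and each array probe with one of these gene symbols was used. This gave 12 probes of 9 genes among the 25697 probes and 18138 symbols of the array, and no probe was found for Cebpd. 4 of the 12 probes, of Pparg, Lpl, Fabp5 and G0s2, were detected on all 8 arrays. The other 8 probes lay at background on at least 7 arrays, so that Cebpa, Cd36, Fabp4, Adipoq and Cfd could not be compared between the strains at this signal.

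The Nd2-mutant strain, C57BL/6J-mtALR/LtJ, and the control strain, C57BL/6J-mtAKR/J, are conplastic: repeated backcrossing gave both the nuclear genome of C57BL/6J, while the mitochondrial genome came from the ALR/LtJ or the AKR/J donor. RNA of primary fibroblasts at passage 1 was measured on 1 MouseRef-8 v2.0 array for each of 8 cultures, 4 of mutant animals (males 28 and 32, females 34 and 35) and 4 of control animals (males 16 and 17, females 15 and 37), each 12 months old. The mitochondrial variant is present in every tissue of the animal, and the cells were grown in DMEM with fetal calf serum, with no adipogenic stimulus named. The values compare cultures of individual mice, and in such bulk RNA a smaller number of expressing cells and less RNA per cell cannot be told apart.

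Adipogenesis is the conversion of a fibroblast-like precursor into a fat-storing cell. C/EBP-delta, together with C/EBP-beta, acts early and switches on Pparg and Cebpa, which then sustain each other and activate the genes of fatty acid uptake, transport and storage. Dermal fibroblasts include precursors of the fat layer of the skin, and many of these genes are used by macrophages or endothelial cells as well.

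Upstream sequences are shown for the 2 detected genes that had an entry, Pparg and G0s2, and for Adipoq and Cfd, which were detected only in mutant mouse 35. They are the 250 bases before a RefSeq transcription start on GRCm38.p6, written 5′ to 3′ on the strand of the gene. For Pparg, which had 3 starts, the one farthest downstream is given. Capitals mark matches on either strand to TTNNGNAA (reverse TTNCNNAA), the core of a C/EBP site, to AGGTCA (reverse TGACCT), the half-site of nuclear receptors such as PPAR-gamma, to CCAAT (reverse ATTGG) and to TATAAA (reverse TTTATA). No 2 marked matches overlap. The regions lie at chr6:115421816-115422065 (plus strand, Pparg), chr1:193273189-193273438 (minus strand, G0s2), chr16:23146286-23146535 (plus strand, Adipoq) and chr10:79890603-79890852 (plus strand, Cfd).
Pparg: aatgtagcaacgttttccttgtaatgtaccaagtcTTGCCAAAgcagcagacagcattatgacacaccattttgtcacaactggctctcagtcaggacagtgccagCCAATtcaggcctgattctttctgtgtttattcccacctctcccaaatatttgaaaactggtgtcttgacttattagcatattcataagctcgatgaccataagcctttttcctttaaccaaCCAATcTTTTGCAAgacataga
G0s2: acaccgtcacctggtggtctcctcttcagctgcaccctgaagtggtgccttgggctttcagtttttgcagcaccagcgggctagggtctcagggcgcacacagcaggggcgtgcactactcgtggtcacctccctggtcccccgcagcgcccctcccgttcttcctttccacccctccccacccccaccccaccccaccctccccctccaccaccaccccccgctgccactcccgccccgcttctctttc
Adipoq: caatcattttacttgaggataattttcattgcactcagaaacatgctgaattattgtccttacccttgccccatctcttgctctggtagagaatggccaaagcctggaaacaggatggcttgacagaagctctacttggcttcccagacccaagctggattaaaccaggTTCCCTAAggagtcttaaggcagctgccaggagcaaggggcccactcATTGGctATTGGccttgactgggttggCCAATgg
Cfd: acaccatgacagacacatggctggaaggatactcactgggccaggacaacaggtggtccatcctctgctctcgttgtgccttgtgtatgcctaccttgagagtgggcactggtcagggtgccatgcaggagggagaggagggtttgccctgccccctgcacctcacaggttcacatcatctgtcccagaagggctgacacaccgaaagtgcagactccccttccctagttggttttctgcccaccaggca

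The Pparg region shown held 2 matches to TTNNGNAA, the first bases of which lie 215 and 16 bases before the start, and 2 to CCAAT. The regions before the other Pparg starts, not shown, differed from it. They held no match to TTNNGNAA and 1 each to AGGTCA. The region before the start at 115362349 also held 1 match to CCAAT and 1 to TATAAA. The Adipoq region held 1 match to TTNNGNAA and 3 to CCAAT, whereas the G0s2 and Cfd regions held none of the 4 motifs. Among 32851 regions of this length, 36.8% held TTNNGNAA, 33.8% CCAAT, 14% AGGTCA and 12.4% TATAAA, so that single matches are common. A match is a run of letters, and the arrays measured no binding.

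The arrays were alike apart from control mouse 15, whose mean correlation with the other arrays was 0.934 against 0.963 to 0.974 for the rest. Between 10973 and 11350 probes were detected on the mutant arrays and between 10663 and 10837 on the control arrays, at the detection p-value below 0.01 that the methods use. The lowest intensity of a detected probe was 10.5 to 12.1 on the mutant and 12.7 to 13.6 on the control arrays. This limit was thus higher on each control array than on each mutant array. Its bearing on probes near background was not tested. All 8 genes of a fibroblast list, among them the collagen genes, Dcn, Lum, Pdgfra, Thy1 and Vim, were detected on all 8 arrays, as the label of the cells has it. For the tests, 16 was added to the intensity and the log2 was taken, and the limma fit took in the 10414 probes of 8003 genes detected in all 4 mice of one strain or of both. Differences below are on this log2 scale, which understates differences between low intensities, and intensities are given on the linear scale. An intensity is comparable between mice but not between probes.

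Between the strains, none of the detected adipogenic genes differed beyond the spread among mice. In limma, 0 of the 4 tested probes had an adjusted p under 0.05 (0% of all tested probes had one), and 0 of the 4 had an unadjusted p under 0.05, against 7.63% of all tested probes (4.5% higher and 3.13% lower in Nd2-mutant fibroblasts). The methods' t-test gave 0 of the 4 at an adjusted and 0 at an unadjusted p under 0.05. The mutant and the control intensities overlapped for all 4 probes, whereas 4.37% of all tested probes had no overlap. Lpl, Pparg and G0s2 had higher means in mutant fibroblasts and Fabp5 a lower one, with a median difference of 0.25 over the 4 probes and of 0.00 over all tested probes. The lowest adjusted p was 0.711 among the 4 and 0.639 among all. The intervals were wide, and a higher level in the mutant of up to 1.33 for Lpl and 1.26 for Pparg lay within them.

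Between the sexes, Pparg and Lpl had lower mean intensities in males than in females, without passing the adjusted threshold. 2 of the 4 probes had an unadjusted p under 0.05 in limma with strain as a term, both with the lower level in males, against 8.31% of all tested probes (4.45% lower in males). For 1 of the 4, Pparg, the sexes did not overlap, against 5.16% of all tested probes (2.67% lower in males). 0 of the 4 had an adjusted p under 0.05, which 0.0192% of all tested probes had. The median difference, male minus female, was -0.60 over the 4 probes and 0.01 over all tested probes. For the interaction of strain and sex, 0 of the 4 probes had an unadjusted or an adjusted p under 0.05 in limma, against 1.77% and 0.0096% of all tested probes.

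**Figure D1:**
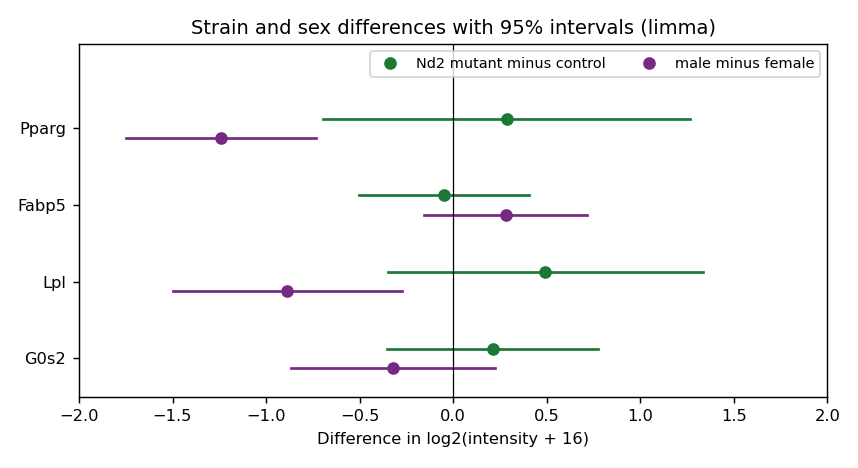
Differences of the 4 tested adipogenic genes on the log2 scale (horizontal axis, log2 of intensity + 16), for Nd2 mutant minus control and for male minus female, as points with lines for the 95% intervals from limma. The 4 strain intervals include 0, and the sex intervals of Pparg (-1.24) and Lpl (-0.89) lie below 0.

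Pparg encodes PPAR-gamma, the nuclear receptor without which no adipocyte forms. The intensity of its detected probe (ILMN_1221060, chromosome 6) was 26.9 and 16.1 in the male and 85.1 and 119 in the female Nd2-mutant mice. In control mice it was 33.6 and 17.1 in the males and 62.5 and 50.1 in the females. Each of the 4 females lay above each of the 4 males, and the mutant females above the control females, whereas the males of both strains intermingled. By strain, the mean was 61.7 ± 48.7 (SD, n = 4) for the mutant and 40.8 ± 19.7 (SD, n = 4) for the control. The log2 difference was 0.29 (standard error 0.44, 95% interval -0.69 to 1.26, adjusted p = 0.852 in limma, exact permutation p = 0.629), so that the strain difference was smaller than the spread between mice. Without mutant mouse 35, the highest, the difference was -0.060.

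By sex, Pparg had a mean intensity of 23.4 ± 8.33 (SD, n = 4) in males and 79.1 ± 30.2 (SD, n = 4) in females. The difference, male minus female, was -1.24 (standard error 0.23, 95% interval -1.75 to -0.73, adjusted p = 0.206 in limma). It was past an unadjusted p of 0.05 but not past the threshold after adjustment over all tested probes. The sex difference was -1.08 without mouse 35 (adjusted p = 0.706 in limma) and -1.27 without mouse 15 (adjusted p = 0.159). Within females alone, the strain difference was 0.70 (standard error 0.27, adjusted p = 0.929 in limma), past an unadjusted p of 0.05, as were 3.21% of the 10838 probes tested in females. Within males alone it was -0.13. The interaction, that is the strain difference in males minus that in females, was -0.82 with an adjusted p of 0.99988 in limma, so that a different strain effect in the sexes was not detected with 2 mice per strain and sex.

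2 other probes for Pparg were detected on no array. ILMN_1221594 had intensities between -2.47 and 8.28, the highest in mutant mouse 35, and ILMN_1221893 between -4.49 and 2.02. The 3 probes of the gene thus disagreed in signal, and which transcripts each one covers was not analysed here.

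Cebpa encodes C/EBP-alpha, the partner that keeps Pparg switched on in mature fat cells. Its probe (ILMN_1247147, chromosome 7) had intensities of 10.2, 3.39, 9.84 and 6.86 in mutant mice 28, 32, 34 and 35 and of 5.34, 3.62, 4.76 and 13.4 in control mice 15, 16, 17 and 37. Only the 13.4 of control mouse 37 passed detection, so that the gene was not well above background in either strain. Cebpd, the early C/EBP factor of the list, was not analysed here.

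Lpl encodes lipoprotein lipase, the secreted enzyme that releases fatty acids from circulating triglycerides. Its probe (ILMN_2692723, chromosome 8) was far above background on every array. The intensity was 3635 and 2238 in the male and 4502 and 6889 in the female mutant mice. In control mice it was 1584 and 2865 in the males and 5012 and 2806 in the females. Mutant mouse 35 was again the highest, and control mouse 15 came next. The mean was 4316 ± 1952 (SD, n = 4) for the mutant and 3067 ± 1425 (SD, n = 4) for the control, a difference of 0.49 (standard error 0.38, 95% interval -0.35 to 1.33, adjusted p = 0.711 in limma, exact permutation p = 0.314). It was 0.23 without mouse 35 and 0.22 without mouse 16, and 0.77 without mouse 15 or mouse 32.

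In males the mean intensity of Lpl was 2580 ± 876 (SD, n = 4) and in females 4802 ± 1680 (SD, n = 4). The difference, male minus female, was -0.89 (standard error 0.27, 95% interval -1.50 to -0.27, adjusted p = 0.449 in limma), past an unadjusted p of 0.05 but not past the adjusted threshold. Unlike for Pparg, the sexes overlapped, since control female 37 lay below 2 of the males. Without mice 15 and 35 together, an alternative chosen after seeing the data, the sex difference of Lpl was -0.52 (adjusted p = 0.780 in limma) and that of Pparg -1.08 (adjusted p = 0.401). The number of the 4 probes with an unadjusted p under 0.05 for sex then was 1 in place of 2.

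**Figure D2:**
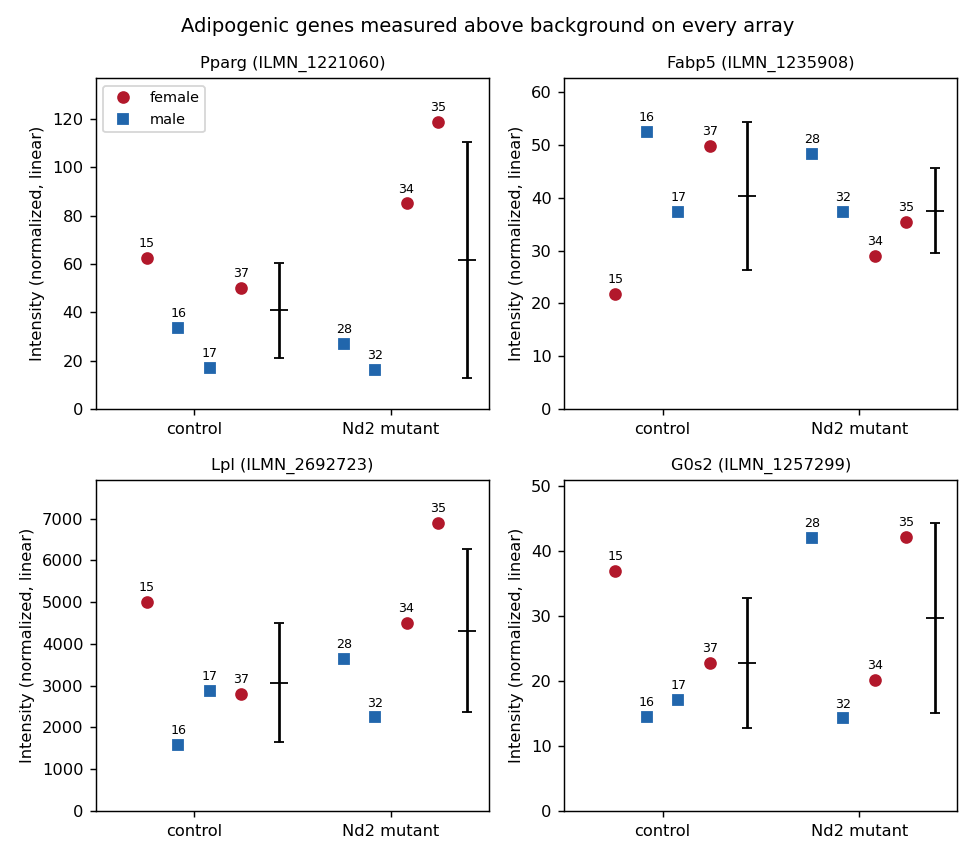
Intensity (vertical axis, normalized, linear scale, from 0) of the 4 tested adipogenic genes in each control and Nd2-mutant mouse, with mouse numbers, circles for females and squares for males, and the mean with its SD beside each strain. The strains overlap in all 4 panels, and in the Pparg panel the 4 females (50.1 to 119) sit above the 4 males (16.1 to 33.6).

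The genes for the further steps of fatty acid handling were low. Cd36 encodes a fatty acid receptor of the cell surface, and its probe (ILMN_1232470, chromosome 5) had intensities between -3.27 and 2.70 with detection on no array. Fabp4 encodes the fatty acid carrier of mature adipocytes and macrophages. Its probe (ILMN_2615947, chromosome 3) had intensities between -5.46 and 1.98 and was likewise detected on no array. Mutant mouse 35, with the highest Pparg and Lpl, had -2.99 for Cd36 and -1.10 for Fabp4.

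Fabp5, which lies on chromosome 3 as Fabp4 does, encodes the epidermal fatty acid carrier, which many cell types express. The probe ILMN_1235908 had intensities of 48.3 and 37.3 in the male and 29.0 and 35.4 in the female mutant mice. In control mice it had 52.5 and 37.3 in the males and 21.8 and 49.8 in the females. The mean was 37.5 ± 8.03 (SD, n = 4) for the mutant and 40.4 ± 14.0 (SD, n = 4) for the control, and the lowest and the highest mouse were both controls. The strain difference was -0.049 (standard error 0.21, 95% interval -0.50 to 0.41, adjusted p = 0.952 in limma, exact permutation p = 0.8). Male minus female was 0.28 (standard error 0.19, adjusted p = 0.728 in limma), the only one of the 4 with the higher mean in males. A second probe, ILMN_2685290, had intensities between -5.69 and 1.33 and was detected on no array.

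G0s2 encodes an inhibitor of adipose triglyceride lipase and so acts against the breakdown of stored fat. The intensity of its probe (ILMN_1257299, chromosome 1) was 42.0 and 14.2 in the male and 20.1 and 42.1 in the female mutant mice. In control mice it was 14.4 and 17.1 in the males and 36.8 and 22.7 in the females. The values ran from just above background upwards in both strains, with mice 28, 35 and 15 the highest. The mean was 29.6 ± 14.6 (SD, n = 4) for the mutant and 22.8 ± 10.0 (SD, n = 4) for the control. The difference was 0.21 (standard error 0.25, 95% interval -0.35 to 0.77, adjusted p = 0.811 in limma, exact permutation p = 0.457), and male minus female was -0.32 (standard error 0.24, adjusted p = 0.749 in limma). Single mice moved both: the strain difference was 0.074 without mouse 35, 0.075 without mouse 28, 0.10 without mouse 16, 0.14 without mouse 17, 0.37 without mouse 15 and 0.39 without mouse 32, and the sex difference lay between -0.55 (without mouse 28) and -0.17 (without mouse 32).

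The hormone and the protease of fat cells on the list were at background on 7 of 8 arrays each. Adipoq encodes adiponectin, a hormone of mature adipocytes. Its probe (ILMN_2738082, chromosome 16) had 1.85, -1.31, 0.332 and 11.7 in mutant mice 28, 32, 34 and 35 and 1.47, 0.206, 4.74 and 2.36 in control mice 15, 16, 17 and 37. It was detected in mouse 35 alone.

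Cfd encodes adipsin, also called complement factor D, a protease of the alternative complement pathway made by adipocytes and by macrophages. Its probe (ILMN_2835423, chromosome 10) had 5.51, 7.09, 6.65 and 26.7 in mutant mice 28, 32, 34 and 35 and 2.04, 0.398, -1.38 and 0.303 in control mice 15, 16, 17 and 37. Each mutant value lay above each control value, which held for no other probe of the 10 genes. An exact permutation test gave its smallest possible p for groups of 4, 0.0286. It must do so where each mutant value lies above each control value, so that this p adds nothing to the lack of overlap. Over all probes of the array, whether tested or not, 3.62% had no overlap between the strains and 1.83% none with the mutant higher. Only the 26.7 of mouse 35 passed detection, and no fold is given, since the mean log2 value of the mutant mice lay below that of the lowest detected signals on the control arrays. With all 25697 probes in the fit and no filter on detection, the adjusted p of Cfd was 0.800 in limma, past an unadjusted p of 0.05, as were 6.18% of the probes.

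**Figure D3:**
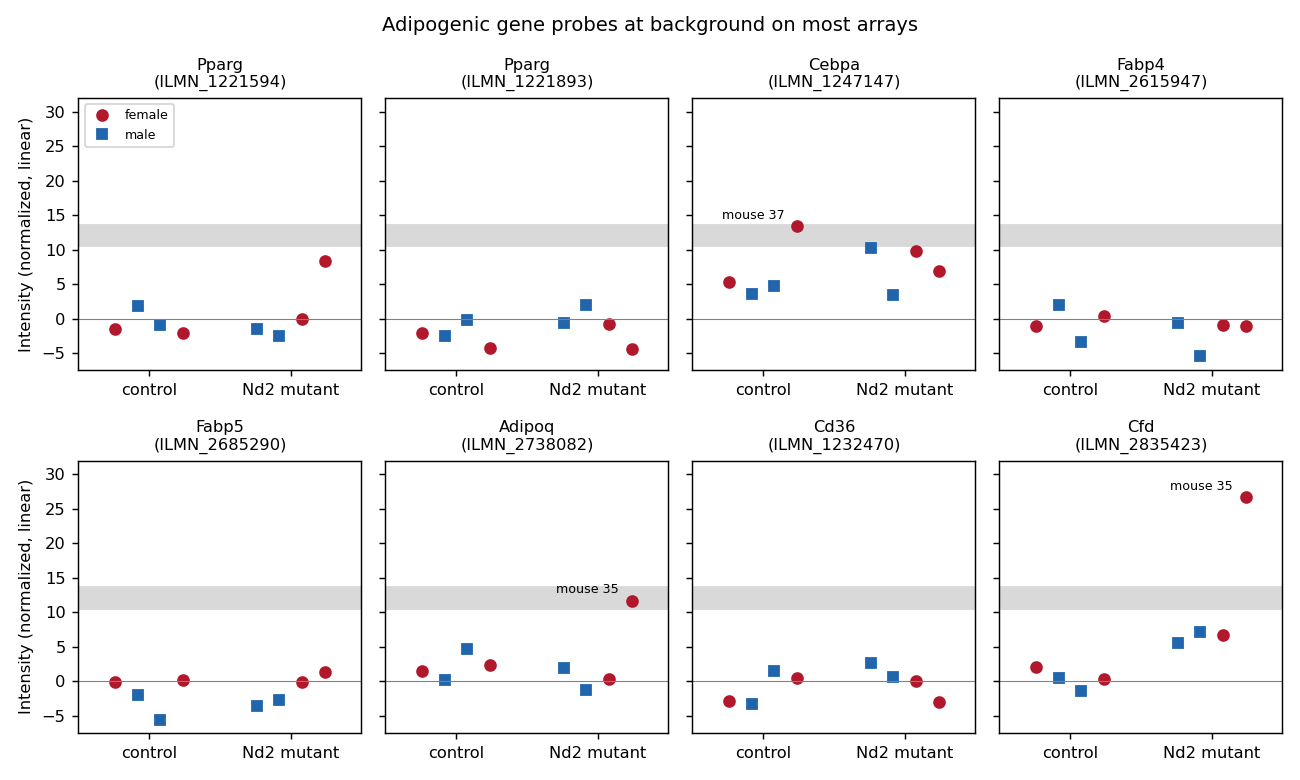
Intensity (vertical axis, normalized, linear scale) of the 8 adipogenic gene probes that were not tested, by strain, with circles for females, squares for males and a grey band for the lowest intensity of a detected probe on each array (10.5 to 13.6). The mice named are the 3 single detections, Cebpa in control mouse 37 and Adipoq and Cfd in mutant mouse 35.

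The detected genes varied unequally among the 8 mice. The log2 values of Lpl spanned 2.11 and those of Pparg 2.07, more than 97.2% and 96.9% of all tested probes. G0s2 spanned 0.94 and Fabp5 0.86, near the median of 0.80 over all tested probes. Mutant mouse 35 had the highest level of Pparg, Lpl and G0s2, mutant mouse 32 the lowest of Pparg and G0s2, and control mouse 15 the lowest of Fabp5. Of the 6 pairs among the 4 genes, Lpl with G0s2 had a Pearson's r of 0.79 over the 8 mice (exact permutation p = 0.0221, adjusted over the 6 pairs 0.101) and a Spearman's rho of 0.81 (exact permutation p = 0.0218, adjusted 0.0653). Pparg with Lpl had an r of 0.75 (exact permutation p = 0.0338, adjusted 0.101) and a rho of 0.71 (exact permutation p = 0.0576, adjusted 0.115). Fabp5 with Lpl had an r of -0.63 (exact permutation p = 0.0922, adjusted 0.184) and a rho of -0.81 (exact permutation p = 0.0218, adjusted 0.0653). Leaving out the 2 mice farthest from the median of the first gene of a pair gave an r of 0.65 for Lpl with G0s2, 0.52 for Pparg with Lpl and -0.38 for Fabp5 with Lpl. The other 3 pairs had an r between -0.40 and 0.52, and none of the 6 passed the adjustment. The permutations mixed the sexes, although Pparg and Lpl had lower means in males, and the pairs were not tested within a sex. Among the males, mouse 16 had the highest Pparg and the lowest Lpl. Among the females, mouse 35 was the highest and mouse 37 the lowest for both genes.

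The tested probes closest to Pparg across the 8 mice, by the mean absolute difference of centred log2 values, were Tcfap2a (ILMN_2764846, 0.248), which encodes the transcription factor AP-2 alpha, and Nuak2 (ILMN_2680038, 0.277), a kinase of the AMPK family. Nuak2 had intensities from 98.5 to 142 in the males and from 326 to 462 in the females. Closest to Lpl were Flrt2 (ILMN_2926842, 0.128), a membrane protein with leucine-rich repeats, and 6030408B16Rik (ILMN_3125764, 0.172). In mutant mouse 35, the highest mouse for Lpl, Flrt2 had 878, and in the lowest, control mouse 16, it had 201.

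Signals of other cell types differed between mice, and their part in the results above was not tested. For 12 macrophage genes the summed intensity was 350 to 2074 in the mutant and 273 to 663 in the control mice. The 2074 belonged to mouse 35, where 11 of the 12 were detected, against 4 to 9 in the other mice. In mouse 35 Lyz2 had 344, C1qb 212 and Cd68 145, whereas both probes of Ptprc, which marks all leukocytes, were detected on no array. The 7 endothelial genes summed to 128 to 241 in the mutant and 206 to 538 in the control mice. Emcn alone had 50.9 to 124 in the mutant and 125 to 272 in the control mice. Of the 4 tested, 3 were lower in the mutant (Emcn -1.20, Pecam1 -0.40 and Cdh5 -0.08) and Tek was higher (0.49). 0 of them had an adjusted p under 0.05 in limma. The 538 belonged to mouse 15, which also had 92.2 for Gpihbp1, the endothelial anchor of lipoprotein lipase, against at most 30.2 elsewhere. The 5 keratinocyte genes with a probe summed to 191 to 1152 in the mutant and 317 to 920 in the control mice. Krt14 alone gave 1007 of the 1152, in mouse 32, while Krt1 was detected on no array and Krt5 on 1. Sums of this kind follow the brightest probes.

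Markers of mature adipocytes outside the 10 genes were mostly at background. Of 10 such genes 9 had a probe, 0 of the 9 were tested, and 7 were detected on no array, namely Plin1, Cidea, Cidec, Lep, Pck1, Retn and Slc2a4. With negative values raised to 0, the 9 summed to 27.1 to 68.5 in the mutant and 23.3 to 47.3 in the control mice. Plin4 alone gave 48.0 of the 68.5, in mouse 35. Lipe was detected in 1 mouse. Plin4, a lipid droplet coat protein carried on the array under its older symbol S3-12 (ILMN_2588249), was detected on 5 arrays. Its intensity was 13.4 and 2.01 in the male and 19.3 and 48.0 in the female mutant mice, and 3.78 and 3.36 in the male and 27.4 and 18.7 in the female control mice. As for Pparg, each female lay above each male and mouse 35 was the highest. The reverse held for a Lipe probe (ILMN_3111326), with 5.20 to 12.9 in males and -1.66 to 4.56 in females. Each female also lay above each male for the Fabp5 probe ILMN_2685290, which was detected on no array. Of all tested probes, 5.16% had no overlap between the sexes, and the share over untested probes was not computed. With no filter on detection, male minus female was -1.02 for Plin4 (adjusted p = 0.530 in limma), past an unadjusted p of 0.05, as were 6.78% of the 25697 probes.

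The upstream and neighbouring genes of the pathway showed no difference past the adjusted threshold either, with 0 genes of each list at an adjusted p under 0.05 in limma for strain and for sex. Of 20 early regulators, 12 were tested and 0 had an unadjusted p under 0.05 for strain, with a median difference of -0.09. Cebpb, the early partner of Cebpd, had intensities between 4902 and 6994 and a strain difference of -0.11. Ppard, a receptor related to Pparg, was detected on no array. Its intensities were -3.11 to -1.48 in mutant and -0.340 to 4.21 in control mice, without overlap. Of all probes, tested or not, 3.62% had no overlap between the strains. With negative values raised to 0, control mouse 37 tied with each mutant mouse (exact permutation p = 0.143). For sex, 2 of the 12 were lower in males at an unadjusted p under 0.05 and 1 was higher, against 8.31% of all tested probes in either direction and 4.45% lower in males. Egr2, an early zinc finger factor of adipogenesis, had -0.69 and Stat5a, which relays hormone signals, -0.42. Klf4, which acts with Egr2 on Cebpb, had 0.87 by 1 probe (ILMN_2999439), while its other 2 probes had 0.61 and 0.68 with p-values above 0.05.

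Of 17 inhibitors of adipogenesis, 12 were tested and 1 had an unadjusted p under 0.05 for strain, near the 7.63% of all tested probes. This was Dlk1, the surface protein of preadipocytes also called Pref-1, with 88.0, 14.1, 40.6 and 58.4 in mutant mice 28, 32, 34 and 35 and 26.9, 14.5, 14.0 and 25.5 in control mice 15, 16, 17 and 37. Mutant mouse 32 lay among the controls and the other 3 mutant mice above them, a difference of 0.76 (adjusted p = 0.639 in limma). The median over the list was 0.01, and 0 of the 12 had an unadjusted p under 0.05 for sex. For the interaction 2 of the 12 had one, against 1.77% of all tested probes, both with an adjusted p of 0.99988 in limma. They were Ddit3, a stress factor of the C/EBP family, with -1.58 and -1.59 by its 2 probes, and Hes1, a repressor downstream of Notch, with 1.99.

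Of 24 genes of lipid storage and lipolysis, 14 were tested, with 1 higher and 1 lower in mutant fibroblasts at an unadjusted p under 0.05, near the 4.5% and 3.13% of all tested probes, and a median of 0.01. Acsl1, which activates long-chain fatty acids, had 35.8 to 44.5 in mutant and 20.9 to 31.7 in control mice, without overlap (difference 0.39, adjusted p = 0.639 in limma). Mgll, the lipase for monoacylglycerol, had 17.1 to 24.4 in mutant and 25.7 to 71.0 in control mice by probe ILMN_2857957, also without overlap (difference -0.73, adjusted p = 0.639 in limma). Of all tested probes, 4.37% had no overlap between the strains. A second Mgll probe, ILMN_2700408, had -0.82 with overlapping strains, and another was detected in 1 mouse. A probe of Lipe, hormone-sensitive lipase (ILMN_2742636), was detected on no array and also had no overlap, with 3.06 to 4.73 in mutant and -1.09 to 0.166 in control mice. Of all probes, tested or not, 3.62% had no overlap. Another Lipe probe (ILMN_3111326) was detected in mutant mouse 32 alone. Its strains overlapped, with 4.33 to 12.9 in mutant and -1.66 to 11.9 in control mice. For sex, Angptl4, a secreted inhibitor of lipoprotein lipase, had -0.94, the fatty acid transporter Slc27a1 had -0.37 and Abhd5, the activator of adipose triglyceride lipase that G0s2 opposes, had 0.47, each at an unadjusted p under 0.05 in limma, which 8.31% of all tested probes had. For the interaction, Angptl4 had -1.85 and Dgat2, an enzyme of triglyceride synthesis, -0.93 at an unadjusted p under 0.05, against 1.77% of all tested probes (adjusted p = 0.99988 in limma for both).

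Of 13 adipokines and their receptors, 6 were tested and 0 had an unadjusted p under 0.05 for strain, with a median of 0.04. For sex, 2 of the 6 were lower in males at an unadjusted p under 0.05, against 4.45% of all tested probes. Cdh13, which binds adiponectin, had -0.60, and Metrnl, a secreted factor of fat and muscle, had -0.57 by 1 of its 2 probes. The adiponectin receptors Adipor1 and Adipor2 were detected on all arrays with strain differences of 0.16 and -0.06, whereas adiponectin itself was detected in mouse 35 alone.

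**Figure D4:**
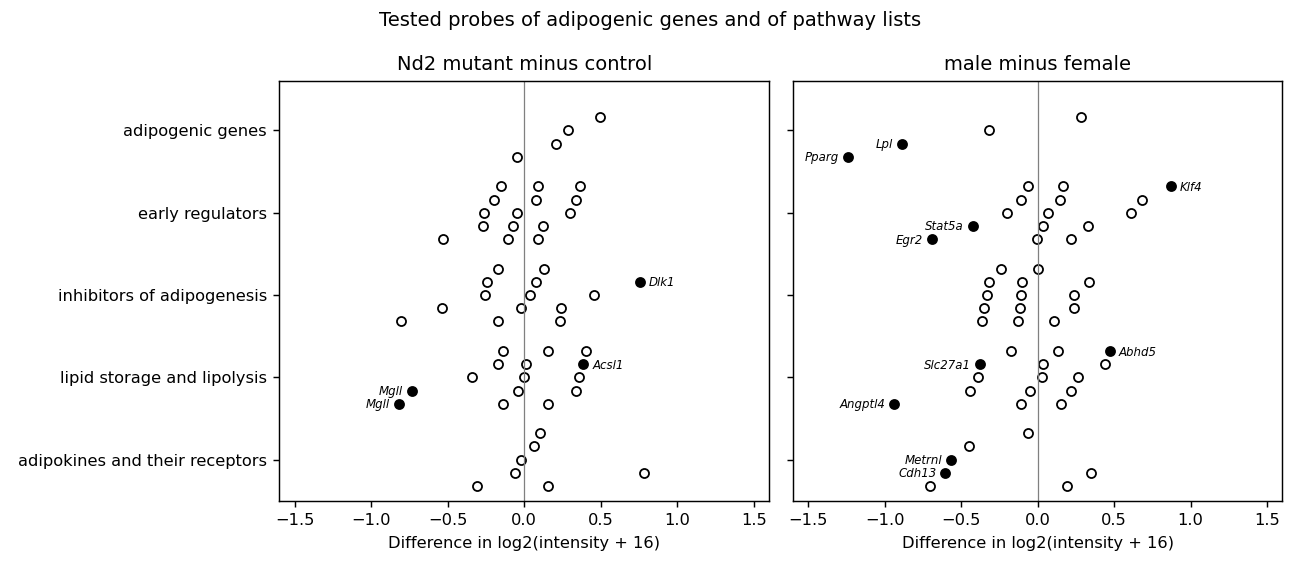
Differences in log2 of intensity + 16 (horizontal axes) for each tested probe of the adipogenic genes and of the 4 pathway lists, Nd2 mutant minus control on the left and male minus female on the right, with filled and named points at an unadjusted limma p under 0.05. The filled points of the strain panel are Dlk1 (0.76), Acsl1 (0.39) and both Mgll probes (-0.73 and -0.82), and none passed the adjustment.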

How the data were processed

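RNA of skin fibroblasts from 4 Nd2-mutant and 4 control mice was measured on 8 arrays. GenomeStudio was used by the authors for quantile normalization and background subtraction, which left the deposited intensity values linear and ranging from -12.3 to 13935, with 26.2% at 0 or lower. The deposited detection p-values come from the same software. The number of arrays limits the precision. Genome build and probe sequences are not given in the sources used here.

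Negative values were raised to 0 and log2 was computed after adding 16. Probes with a detection p-value under 0.01 on all 4 arrays of at least 1 strain were tested with limma 3.58.1 in R 4.3.3, in 2-sided tests at a threshold of 0.05 after Benjamini-Hochberg adjustment across the 10414 probes. Sex was tested with strain as a term, then the interaction. Single probes were also tested with exact permutation tests. Since the methods also name Student's test, a Student's t-test served as an alternative. It was run on the same log2 values as limma, so that it may differ from the published test. The steps were tested on simulated data. Strain, sex and mouse number came from the labels. The p-values measure the spread between cultures of different mice.

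The 10 genes and all lists were chosen with earlier results of these data known, so no p was adjusted over a list. Every probe of the 10 genes is named, as are listed genes with an unadjusted p under 0.05 or no overlap between the strains and the main markers of a cell type, and for genes whose log2 range exceeds 1 the 2 closest probes. Cebpb, Gpihbp1, Plin4, Adipor1 and Adipor2 were named after their values were seen. Symbols were matched to RefSeq synonyms. Upstream sequences came from an extract of RefSeq on GRCm38.p6, in which 6 of the 10 genes had an entry.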

Additional observations from a re-analysis of the deposited data

Results flagged for a closer look

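In 2 of 24 groups of 4 mice that were checked over the 12 probes, 1 mouse lay apart from the other 3 of its strain, by the gap to its nearest neighbour as a share of the range of the group. Chance gives about 1 in 20 such groups, or 1.2 of 24. For Cfd (ILMN_2835423) it was mutant mouse 35, with 26.7 against 5.51 to 7.09 and a gap of 0.925 of the range. For Fabp4 (ILMN_2615947) it was mutant mouse 32, with -5.46 against -1.10 to -0.578 and a gap of 0.892, and all 4 values were at background.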

How the results depend on the processing

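In every alternative run for strain, sex and interaction, 0 probes of the adipogenic genes had an adjusted p under 0.05 in limma. The number with an unadjusted p under 0.05 for strain was 0, and 1 when detection on 1 or more arrays was enough (Cfd, which entered through mutant mouse 35 alone, so that this is no test of the strains), 1 with no filter (Cfd) and 1 in females alone (Pparg). For sex it was 2, between 2 and 3 without single mice, and 1 without mice 15 and 35 together, a setting chosen after seeing the data. The strain difference of Pparg turned to -0.13 in males alone and lay between -0.060 and 0.63 without single mice, turning without mutant mouse 35 alone. That of Fabp5 lay between -0.23 and 0.057 without single mice, turning to 0.031 without mutant mouse 34, to 0.057 without control mouse 16 and to 0.038 without control mouse 37, and its interaction turned to -0.015 with 1 added before log2. Lpl and G0s2 kept their direction in all 21 strain alternatives, with adjusted p from 0.600 to 0.929 and from 0.714 to 0.995, and Pparg and Lpl theirs in all 15 sex alternatives, with adjusted p from 0.101 to 0.706 and from 0.145 to 0.963. Over all probes, strain gave 0 at an adjusted p under 0.05, but 3 with no filter and 1 by Student's t-test on the log2 values. At an unadjusted p it gave 795, and 1587 with no filter, 348 in females alone and 436 to 1467 without single mice (474 without mutant mouse 28, 436 without control mouse 16, 1467 without control mouse 17). Sex gave 2 at an adjusted p under 0.05, and 1 with 50 added, 0 on the linear scale, 8 when detection on 1 or more arrays was enough, 4 when all 8 were needed and 0 to 11 without single mice, namely 0 without mutant mouse 28, 32, 34 or 35, 1 without control mouse 16 or 17, 7 without 37 and 11 without 15. The interaction gave 1, and 0 with 1 added, with no filter or on the linear scale. The causes were not tested. No paired analysis was possible because no mouse number occurs in both strains. Other background correction and normalization were not run, because the table named as non-normalized holds the normalized values.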

Other observations

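Among the tested cell type markers, 3 genes had no overlap between the strains. They were 2 of the 8 fibroblast and 1 of the 4 endothelial genes, with 0 of 7 macrophage and 0 of 2 keratinocyte genes. Of all tested probes, 4.37% had no overlap. Of the fibroblast genes, the proteoglycan Lum had 212 to 265 in mutant and 53.1 to 201 in control mice (difference 0.88, adjusted p = 0.639 in limma). Dcn, another small proteoglycan of the collagen matrix, had 1609 to 2136 against 544 to 1500 by probe ILMN_2596346 (difference 0.82, adjusted p = 0.639 in limma), whereas its second probe, ILMN_2747959, had a difference of 0.12 with overlap. The endothelial gene Emcn had 50.9 to 124 in mutant and 125 to 272 in control mice (difference -1.20, adjusted p = 0.639 in limma). Krt14, a keratin of the basal epidermis, ranged from 38.3 to 1007 over the 8 mice, with mutant mouse 32 and control mouse 15 the highest. Of the macrophage genes, 1, the lipopolysaccharide co-receptor Cd14, had an unadjusted p under 0.05 for the interaction of strain and sex in limma (-1.17, adjusted p = 0.99988), a level that 1.77% of all tested probes reached.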
